A study of Homo sapiens with 18 samples.

Results

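The genes CDKN1A, MDM2, TP53I3, FAS, GDF15, RRM2B, SESN1, ZMAT3, FDXR and TIGAR are 10 well known transcriptional targets of the tumour suppressor p53, and their levels were followed across xenograft tumours of a p53 wild-type cancer line. They were found by symbol through their Entrez gene IDs, and all 10 were present among the 25343 human genes listed and among the 14074 genes that passed the filter on low counts. The 18 tumours sequenced were xenografts of HCT116, an established cell line from a human colon carcinoma that has wild-type p53, and every one, the vehicle controls included, carried the PTDSS2 knockout. PTDSS2 and PTDSS1 both make phosphatidylserine, a membrane phospholipid, and the series concerns inhibition of PTDSS1 in cells that lack PTDSS2. Mice were given vehicle (0.5% methylcellulose) or the compound DS55980254 at 10 or 30 mg/kg by mouth, and 6 tumours per group were taken 24 hours after dosing. The labels do not say whether the line is 1 clone or whether each tumour came from its own mouse, so p-values measure the spread between these samples, which may in part be technical.

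The protein p53 is kept scarce by MDM2, a ubiquitin ligase that marks it for destruction and is itself a p53 target, so that p53 limits its own level. DNA damage, nucleotide shortage, nucleolar stress and other insults release p53, which then binds a repeated element near its target genes and raises their transcription. HCT116 cells are a standard model of this response, because they arrest through CDKN1A when p53 is activated.

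The p53 element consists of a pair of half-sites of 10 bases each, and near matches to it lie close to an annotated start of several of the genes. RefSeq promoter windows (GRCh38.p14), each covering 250 bases before and 50 bases after a start, were searched for 20 bases that differ from 2 adjacent p53 half-sites at 3 positions or fewer, with the C and the G of each core intact. The element reads alike on both strands, so 1 search covers both. Windows were available for 9 of the 10 genes, and 5 of these 9 held a match, against 1.37% of all 27305 genes with a window. The windows of CDKN1A, TP53I3, ZMAT3 and TIGAR held none, which says only that these letters are not in these windows. The matches of the 5 genes, and that of PMAIP1, another p53 target described further on, are shown so that the letters can be set beside the element that p53 is known to bind. A match describes the sequence and is not a measured binding site. Capitals mark the matched element, and bases after the start are left out unless the element lies there.

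MDM2: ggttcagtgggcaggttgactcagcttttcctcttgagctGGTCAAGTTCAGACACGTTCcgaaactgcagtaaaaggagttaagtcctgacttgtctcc
FAS: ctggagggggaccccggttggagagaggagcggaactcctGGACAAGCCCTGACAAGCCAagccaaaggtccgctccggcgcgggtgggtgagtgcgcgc
SESN1: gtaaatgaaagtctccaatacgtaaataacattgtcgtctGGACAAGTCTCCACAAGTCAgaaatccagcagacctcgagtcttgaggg
FDXR: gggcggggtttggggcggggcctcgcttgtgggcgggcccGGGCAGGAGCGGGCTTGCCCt
GDF15: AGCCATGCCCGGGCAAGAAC
PMAIP1: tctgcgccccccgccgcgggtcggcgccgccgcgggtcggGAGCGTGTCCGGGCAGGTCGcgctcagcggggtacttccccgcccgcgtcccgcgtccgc

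Coordinates are those of GRCh38.p14. The MDM2 stretch is chr12:68808883-68808982 on the plus strand, and its element has 2 mismatches and begins 94 bases before one of the annotated starts. The FAS stretch is chr10:88991269-88991368 on the plus strand, with 2 mismatches and an element 122 bases before an annotated start. The other matches have 3 mismatches each. The SESN1 stretch, chr6:109008989-109009077, and the FDXR stretch, chr17:74872995-74873055, are on the minus strand, with elements 49 and 21 bases before an annotated start. Of the windows searched, 1 of 3 for FAS, 1 of 3 for SESN1 and 1 of 2 for FDXR held the match. The GDF15 element, chr19:18386186-18386205 on the plus strand, lies 28 bases past the start. The PMAIP1 stretch is chr18:59899771-59899870 on the plus strand, with its element 185 bases before the start.

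Human counts per library totalled between 3435423 and 8538792 in 17 libraries and 433981 in replicate 2 of the 10 mg/kg group. That library stood apart. Its summed markers were 341 CPM (counts scaled to a common library size) for fibroblasts, 108 CPM for endothelium and 69.1 CPM for leukocytes, against highest values of 109, 22.4 and 18.05 CPM in the other 17 libraries. Its epithelial markers summed to 4281 CPM, against 5027 to 7069 CPM elsewhere. Of 8 epithelial markers, VIL1 and CDX1 did not pass the filter, and keratins, EPCAM, CDH1 and CDX2 did. Only 2 of 6 fibroblast, 2 of 6 endothelial and 3 of 6 leukocyte markers passed it. Those that did not were COL1A2, DCN, LUM, PDGFRB, PECAM1, KDR, CDH5, EMCN, PTPRC, CD3E and CD14. None of the epithelial, fibroblast, endothelial and leukocyte markers was at 0 in all 18 libraries, and their part in the results was not tested. PTDSS2 counts ranged from 4.997 to 12.0 CPM in vehicle tumours, from 7.09 to 13.6 CPM at 10 mg/kg and from 5.19 to 13.1 CPM at 30 mg/kg. Tumours with intact PTDSS2 were not analysed here, so these counts do not check the knockout. Gene counts do not check the p53 genotype either.

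None of the 10 p53 targets passed the test for a difference between groups, edgeR's quasi-likelihood test with Benjamini-Hochberg adjustment over all genes tested. At 10 mg/kg against vehicle 0 of 10 passed an adjusted p of 0.05, where 0.469% of all genes tested passed, and 0 of 10 had an unadjusted p under 0.05, against 9.5% of all genes. At 30 mg/kg against vehicle 0 of 10 passed, against 0.618% of all genes, and SESN1 alone had an unadjusted p under 0.05, against 7.9% of all genes. Between 30 and 10 mg/kg 0 of 10 passed and 0% of all genes did, with RRM2B alone at an unadjusted p under 0.05, against 3.52% of all genes. DESeq2 and limma-voom passed 0 of 10 in each comparison too, with 1, 1 and 2 genes at an unadjusted p under 0.05 by DESeq2 and 0, 1 and 1 by limma-voom. For no gene of the 10 were any pair of groups apart, where 1.22%, 1.71% and 0.128% of all genes had groups that did not overlap.

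The data limit how large a change could have gone unseen. The 95% intervals of the fold change lay between 0.595-fold and 1.64-fold for all 10 genes at 10 mg/kg against vehicle, between 0.620-fold and 1.58-fold at 30 mg/kg against vehicle, and between 0.673-fold and 1.71-fold for 30 against 10 mg/kg. A 2-fold rise and a fall to 0.5-fold thus lay outside the interval of each gene in each comparison. Changes of 1.5-fold or more in either direction lay outside the interval of 5, 8 and 9 of the 10 genes in these comparisons. In bulk tissue, fewer cells that express a gene and less RNA per cell cannot be told apart. Both dose comparisons share the vehicle libraries.

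**Figure D1:**
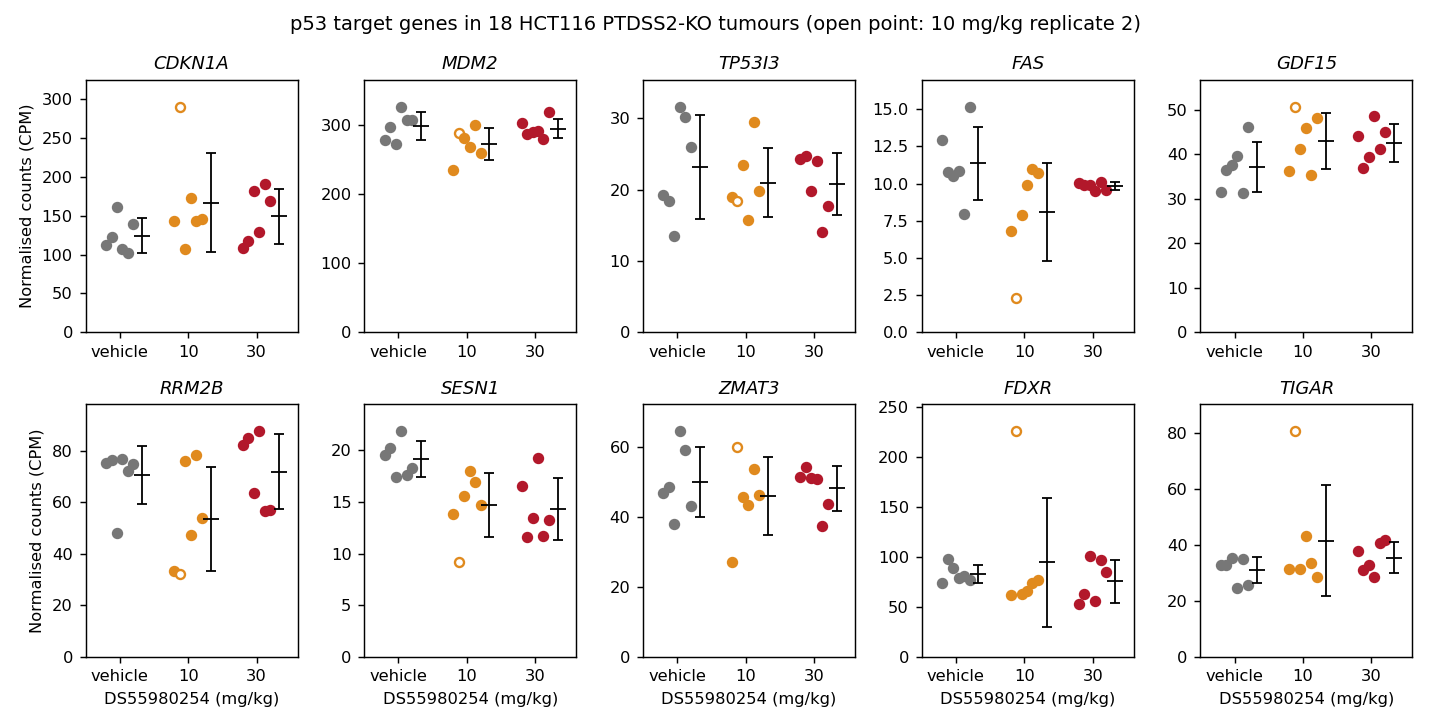
Counts scaled by library totals (CPM, linear axes from 0) of the 10 p53 targets in vehicle tumours and at 10 and 30 mg/kg of DS55980254. Each library is 1 point, with the mean and SD of 6 libraries beside the points. The groups overlap in every panel, and on this scale the open point, 10 mg/kg replicate 2, lies far above its group for CDKN1A, FDXR and TIGAR.

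CDKN1A encodes p21, the inhibitor of cyclin-dependent kinases that carries out p53-dependent arrest. Its levels in replicates 1 to 6 were 112, 123, 162, 107, 102 and 139.9 CPM in vehicle tumours. They were 143, 290.3, 107, 173, 143 and 145 CPM at 10 mg/kg, and the 30 mg/kg tumours had 109, 117, 182, 129, 190.4 and 169 CPM. The vehicle tumours lay in the lower part of the range, and 2 of 6 tumours at 10 mg/kg and 3 of 6 at 30 mg/kg exceeded all of them. The fold change was 1.27 (95% interval 0.979 to 1.64, adjusted p = 0.576) at 10 mg/kg and 1.22 (0.948 to 1.58, adjusted p = 0.800) at 30 mg/kg. Without replicate 2 the 10 mg/kg value was 1.15-fold (0.914 to 1.45). The difference at either dose was thus within the spread of the tumours.

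MDM2, the negative regulator of p53, varied little from tumour to tumour. It had a median of 301.4 CPM (272 to 326 CPM) in vehicle tumours, 274 CPM (234 to 300.1 CPM) at 10 mg/kg and 291 CPM (279 to 318 CPM) at 30 mg/kg. Its coefficient of variation was 6.69%, 8.59% and 4.69% in these groups. Its fold change was 0.908 (0.800 to 1.03, adjusted p = 0.647) at 10 mg/kg and 1.01 (0.891 to 1.145, adjusted p = 0.999) at 30 mg/kg, so a rise of more than 1.145-fold lay outside both intervals.

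SESN1, sestrin 1, restrains mTORC1 signalling and protects against oxidants, and it had the smallest p of the 10 at each dose against vehicle. Replicates 1 to 6 of the vehicle group had 19.5, 20.2, 17.4, 21.8, 17.6 and 18.3 CPM. The 10 mg/kg tumours had 13.9, 9.22, 15.5, 18.05, 16.97 and 14.7 CPM, and the 30 mg/kg tumours had 16.5, 11.6, 13.4, 19.2, 11.7 and 13.3 CPM. At each dose 5 of 6 tumours lay below every vehicle tumour. Relative to vehicle the fold change was 0.809 (0.652 to 1.01, adjusted p = 0.540) at 10 mg/kg and 0.765 (0.620 to 0.944, unadjusted p = 0.0148, adjusted p = 0.428) at 30 mg/kg. Neither passed, and over 29 other settings the adjusted p at 30 mg/kg ran from 0.134 to 1.00. The counts behind these values were 44 to 141 per library at 30 mg/kg and 71 to 107 in vehicle tumours, with 4 in the shallow 10 mg/kg library.

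TIGAR, a phosphatase that turns glucose away from glycolysis, had a median of 32.9 CPM (24.5 to 35.5 CPM) in vehicle tumours, 32.5 CPM (28.6 to 80.6 CPM) at 10 mg/kg and 35.3 CPM (28.5 to 41.9 CPM) at 30 mg/kg. The value of 80.6 CPM came from replicate 2 and rests on 35 reads. TIGAR's fold change was 1.18 at 10 mg/kg (1.09 without that library) and 1.17 at 30 mg/kg, with adjusted p of 0.686 and 0.865.

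FDXR, ferredoxin reductase, feeds electrons to mitochondrial enzymes of steroid and iron-sulphur cluster synthesis. Its levels at 10 mg/kg were 62.2, 226, 63.0, 65.5, 73.7 and 77.3 CPM, against 74.0, 97.6, 88.8, 78.8, 81.3 and 77.3 CPM in vehicle tumours. Replicate 2 was thus far above all vehicle tumours while 4 of the other 5 tumours lay below all of them. The mean was 94.6 ± 64.6 CPM at 10 mg/kg, against 83.0 ± 8.73 CPM in vehicle (SD, n = 6 each), while the fitted fold change was 0.987 (0.709 to 1.37, adjusted p = 0.995). Without replicate 2 the mean was 68.3 ± 6.74 CPM (SD, n = 5) and the fold change 0.832, which did not pass either (adjusted p = 0.578). The 30 mg/kg tumours ranged for FDXR from 52.6 to 101 CPM, with 3 tumours below and 1 above all vehicle tumours (0.925-fold, adjusted p = 0.984).

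TP53I3, or PIG3, is an oxidoreductase linked to p53-induced reactive oxygen. It varied most of the 10 between vehicle tumours, with 13.5 to 31.6 CPM and a coefficient of variation of 31.2%. It ranged from 15.7 to 29.4 CPM at 10 mg/kg and from 14.1 to 24.7 CPM at 30 mg/kg, in both cases inside the vehicle range. The fold changes of 0.928 and 0.921 had adjusted p of 0.898 and 0.972.

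RRM2B encodes p53R2, the subunit of ribonucleotide reductase that supplies nucleotides for repair in cells that are not dividing. Vehicle tumours had 75.2, 76.6, 48.0, 76.7, 72.2 and 75.1 CPM, 10 mg/kg tumours 33.3, 32.3, 76.0, 47.4, 78.6 and 54.1 CPM, and 30 mg/kg tumours 82.3, 85.1, 63.6, 87.6, 56.7 and 56.9 CPM. All vehicle tumours but replicate 3 lay close together, whereas both dosed groups spread widely. At 10 mg/kg 3 tumours lay below all vehicle tumours and 1 above, and at 30 mg/kg 0 lay below and 3 above. Against vehicle the fold change was 0.798 (0.610 to 1.04, adjusted p = 0.610) at 10 mg/kg and 1.04 (0.805 to 1.35, adjusted p = 0.993) at 30 mg/kg. For 30 against 10 mg/kg it was 1.31 (1.00 to 1.71, unadjusted p = 0.0498, adjusted p = 0.969), and 1.26 without replicate 2 of the 10 mg/kg group.

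ZMAT3, an RNA-binding protein that p53 uses to alter splicing and transcript stability, had a median of 47.6 CPM (38.0 to 64.5 CPM) in vehicle tumours, 45.9 CPM (27.2 to 59.9 CPM) at 10 mg/kg and 51.0 CPM (37.5 to 54.4 CPM) at 30 mg/kg. The fold changes of 0.892 and 0.985 against vehicle had adjusted p of 0.762 and 0.999.

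FAS is the death receptor through which p53 can sensitise cells to apoptosis, and GDF15 is a secreted stress hormone. FAS had a median of 10.8 CPM (7.94 to 15.2 CPM) in vehicle tumours, 8.89 CPM (2.30 to 10.96 CPM) at 10 mg/kg and 9.89 CPM (9.49 to 10.1 CPM) at 30 mg/kg. The lowest 10 mg/kg value is 1 read in replicate 2. The fold changes were 0.788 (0.823 without that library) and 0.884, with adjusted p of 0.609 and 0.942. GDF15 had a median of 37.0 CPM (31.2 to 46.2 CPM) in vehicle tumours, 43.5 CPM (35.4 to 50.7 CPM) at 10 mg/kg and 42.7 CPM (36.8 to 48.7 CPM) at 30 mg/kg. Its fold changes of 1.13 and 1.17 had adjusted p of 0.664 and 0.687.

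**Figure D2:**
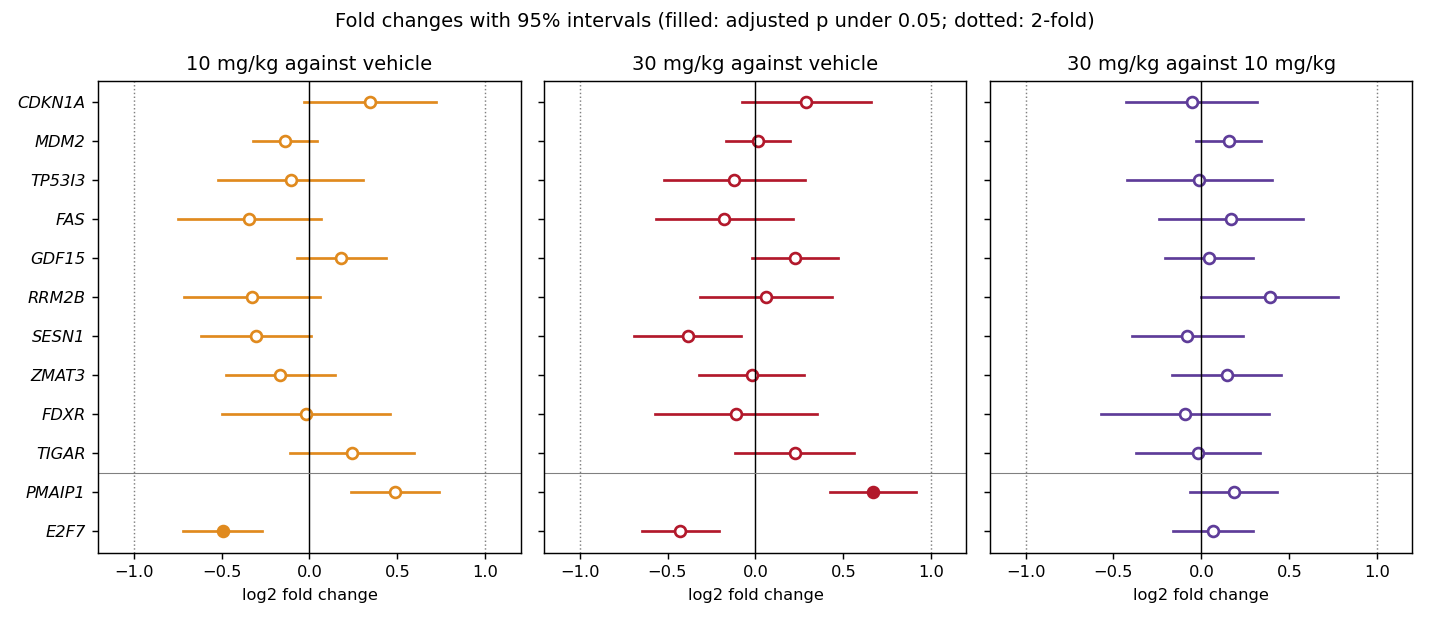
Log2 fold changes with 95% intervals of the 10 p53 targets, and below the line of PMAIP1 and E2F7, for 10 mg/kg against vehicle, 30 mg/kg against vehicle and 30 mg/kg against 10 mg/kg. Open points did not pass an adjusted p of 0.05; all intervals of the 10 genes stay inside the dotted 2-fold lines, and the filled points are PMAIP1 at 30 mg/kg and E2F7 at 10 mg/kg.

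As a set, the 10 genes showed no shared direction. Their median log2 fold change was -0.12 at 10 mg/kg, with 3 positive and 7 negative, and 0.00 at 30 mg/kg, with 5 positive and 5 negative. The medians over all genes were -0.01 and 0.00. Per library, the mean log2 CPM of the 10 genes ranged from 5.50 to 5.66 in vehicle tumours, from 5.24 to 5.65 at 10 mg/kg and from 5.53 to 5.63 at 30 mg/kg, so the groups overlapped there too.

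The genes spanned a wide range of levels. On the length-adjusted scale of TPM (transcripts scaled for length and library size), vehicle tumours held 119 ± 19.7 TPM of CDKN1A, 89.6 ± 9.75 of FDXR, 79.3 ± 5.73 of MDM2 and 64.7 ± 8.94 of GDF15 (SD, n = 6). The ranges of neighbours in this order overlapped. A gap separated them from TP53I3 with 35.7 ± 10.4 TPM and RRM2B with 28.8 ± 4.87 TPM, which overlapped each other. A second gap came before SESN1 with 13.4 ± 1.04 TPM, ZMAT3 with 11.04 ± 2.32 TPM, FAS with 8.64 ± 1.81 TPM and TIGAR with 7.52 ± 1.16 TPM, whose neighbours again overlapped. CDKN1A thus had the highest mean of the 10 in tumours that had received no compound, with a range that overlapped FDXR's.

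Of 40 further p53 targets, 37 passed the filter, with TP53AIP1, SPATA18 and EDA2R not tested. At 10 mg/kg against vehicle 0 passed as higher and 1 as lower, against 0.419% and 0.0497% of all genes, and at 30 mg/kg 1 passed as higher and 0 as lower, against 0.568% and 0.0497%. Their median log2 fold changes were -0.02 and -0.06. At 10 mg/kg against vehicle 5 of 37 had an unadjusted p under 0.05 by edgeR (2 higher, 3 lower), against 9.5% of all genes. At 30 mg/kg 8 of 37 did (3 higher, 5 lower), against 7.9% of all genes. Between the doses 0 of 37 passed by edgeR, with 2 at an unadjusted p under 0.05, against 3.52% of all genes. DESeq2 and limma-voom also passed 0 between the doses, with 2 each at that level. Against vehicle DESeq2 passed 2 at each dose and limma-voom 1. At an unadjusted p under 0.05 DESeq2 had 7 at each dose and limma-voom 6 and 10.

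The gene that rose was PMAIP1, which encodes NOXA, a pro-apoptotic protein that neutralises MCL1 and whose promoter element is shown above. It had 155, 112, 110.5, 112, 161 and 158 CPM at 30 mg/kg, against 82.9, 83.3, 97.0, 87.1, 82.1 and 86.9 CPM in vehicle tumours. All 6 dosed tumours exceeded every vehicle tumour, with 3 tumours between 155 and 161 CPM and 3 between 110.5 and 112 CPM. The fold change was 1.59 (1.34 to 1.88, adjusted p = 0.00307, edgeR), and it did not pass on TPM with limma-trend (adjusted p = 0.274). At 10 mg/kg PMAIP1 had 103, 113, 125, 131, 145 and 109 CPM, again all above the vehicle tumours on this scale. On TPM replicate 2 had 70.88, below all vehicle tumours (87.76 to 99.48). The other 10 mg/kg tumours had 108.42 to 160.2 TPM, above all of them. The 10 mg/kg fold change of 1.40 (1.18 to 1.66) missed the threshold at an adjusted p of 0.0832 by edgeR. It passed under 5 of 29 other settings. These were DESeq2 (adjusted p = 0.0100), limma-voom with sample weights (adjusted p = 0.00839), a covariate for how strongly each library's values depend on gene GC content, its GC slope (adjusted p = 0.0123), and the fits without 10 mg/kg replicate 2 (1.43-fold, adjusted p = 0.0230) and without 30 mg/kg replicate 5 (adjusted p = 0.0490). Over all 29 the adjusted p reached 0.573. PMAIP1 is also known as a target of ATF4 and CHOP, factors of the integrated stress response.

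The gene that fell was E2F7, a repressor of cell cycle genes that p53 induces. It had 39.1, 48.4, 37.7, 33.5, 43.2 and 44.2 CPM at 10 mg/kg, against 64.3, 51.5, 49.9, 55.9, 58.8 and 60.7 CPM in vehicle tumours, with no overlap. The fold change was 0.710 (0.607 to 0.831, adjusted p = 0.0363), a call that was lost under 15 of 29 other settings, where the adjusted p reached 0.216. At 30 mg/kg it was 0.744 (0.639 to 0.865, adjusted p = 0.0666), with 32.97 to 47.1 CPM, all below the vehicle tumours. That value passed under 5 of 29 other settings, namely DESeq2 (adjusted p = 0.0105), limma-voom with sample weights (adjusted p = 0.0142), the GC slope as covariate (adjusted p = 0.0156), the groups compared alone (adjusted p = 0.0358) and the fit without 10 mg/kg replicate 2 (adjusted p = 0.0316), and its adjusted p reached 0.492. Leaving out any 1 of 11 libraries ended the call at 10 mg/kg, with adjusted p from 0.0517 to 0.132. These were 10 mg/kg replicates 1, 3 and 4, 30 mg/kg replicates 1, 2 and 4, and vehicle replicates 1, 2, 4, 5 and 6.

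The other targets named here had values on both sides and did not pass in the main edgeR fit, over all 18 libraries and without covariates. PLK2, a kinase of the stress response, had 0.721-fold at 10 mg/kg and 0.741-fold at 30 mg/kg (adjusted p = 0.272 and 0.352), and the 30 mg/kg value passed with the GC slope as covariate (adjusted p = 0.00779). TRIM22, an antiviral ubiquitin ligase, had 0.704-fold at 30 mg/kg (adjusted p = 0.211). PERP, a membrane protein of desmosomes, had 166 to 203 CPM at 30 mg/kg, against 136 to 163 CPM in vehicle tumours, without overlap (1.27-fold, adjusted p = 0.332). It passed with the groups compared alone (adjusted p = 0.0247) and by limma-voom with sample weights (adjusted p = 0.0476). RPS27L, a ribosomal protein of the p53 response, had 0.793-fold and 0.957-fold (adjusted p = 0.609 and 0.993), with 1 read in the shallow library. The list of 5 p53 targets that ATF4 or CHOP also drive held PMAIP1, GDF15, SESN2, BBC3 and TNFRSF10B, and 1 of the 5 passed by edgeR, PMAIP1 at 30 mg/kg, where 0.618% of all genes passed. At 10 mg/kg 0 of 5 passed by edgeR, against 0.469% of all genes. DESeq2, whose calls over all genes are given further on, passed 1 of 5. By edgeR 2 of the 5 had an unadjusted p under 0.05, against 9.5% of all genes. Their median log2 fold changes were 0.40 and 0.33 at 10 and 30 mg/kg. Without 10 mg/kg replicate 2 the 10 mg/kg median was 0.25, and with the GC slope as covariate 0.23. BBC3, the median gene at 10 mg/kg, had 69.1 CPM in that library, from 30 reads. BBC3, or PUMA, had 1.32-fold and 1.26-fold at 10 and 30 mg/kg (adjusted p = 0.577 and 0.792), and the death receptor gene TNFRSF10B had 0.947-fold and 0.984-fold (adjusted p = 0.807 and 0.998).

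Of 14 regulators of p53, 0 passed in any comparison by edgeR, with 3, 1 and 0 at an unadjusted p under 0.05, against 9.5%, 7.9% and 3.52% of all genes. DESeq2 and limma-voom gave the same counts, and 1 of 14 at 30 mg/kg is near the share over all genes. MDM4, which masks the transactivation domain of p53, had 1.02-fold at 10 mg/kg and 0.982-fold at 30 mg/kg (adjusted p = 0.967 and 0.999). PPM1D, the phosphatase that ends the p53 response, had 0.803-fold and 0.883-fold (adjusted p = 0.388 and 0.829), and it is also counted in the further p53 targets. The promoter windows of the 12 regulators with one held no match to the p53 element.

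CDKN1A acts on cell cycle genes through the DREAM repressor complex, and 16 of these were examined. At 10 mg/kg against vehicle 0 of 16 passed by edgeR, and 7 had an unadjusted p under 0.05, against 9.5% of all genes. In that comparison 16 of 16 had a negative log2 fold change, with a median of -0.26, where 48.8% of all genes had a positive one. Genes of 1 list are not independent samples, and this count of signs was not tested. All 16 stayed negative with DESeq2 size factors, with library totals alone, with a covariate for the GC slope and without replicate 2, where the median was -0.21. The 30 mg/kg group had 0 of 16 past the test, 2 at an unadjusted p under 0.05, against 7.9% of all genes, 13 of 16 negative and a median of -0.11. DESeq2 and limma-voom also passed 0 of 16 at both doses, with the same numbers at an unadjusted p under 0.05. For 30 against 10 mg/kg 0 of 16 passed by edgeR, 14 of 16 were positive and the median was 0.13. In that comparison 2 had an unadjusted p under 0.05, against 3.52% of all genes. BIRC5, survivin, had 96.6 to 105 CPM at 10 mg/kg, against 120.0 to 133 CPM in vehicle tumours (0.787-fold, adjusted p = 0.257). MCM5, a subunit of the replicative helicase, had 67.8 to 116 CPM at 10 mg/kg, against 117 to 135 CPM in vehicle tumours (0.786-fold, adjusted p = 0.384). CDK1, the mitotic kinase, and E2F1, which drives entry into S phase, had 0.699-fold and 0.719-fold at 10 mg/kg (adjusted p = 0.272 and 0.391). By limma-voom with sample weights E2F1 passed at 10 mg/kg (adjusted p = 0.0446) and at 30 mg/kg (adjusted p = 0.0331).

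**Figure D3:**
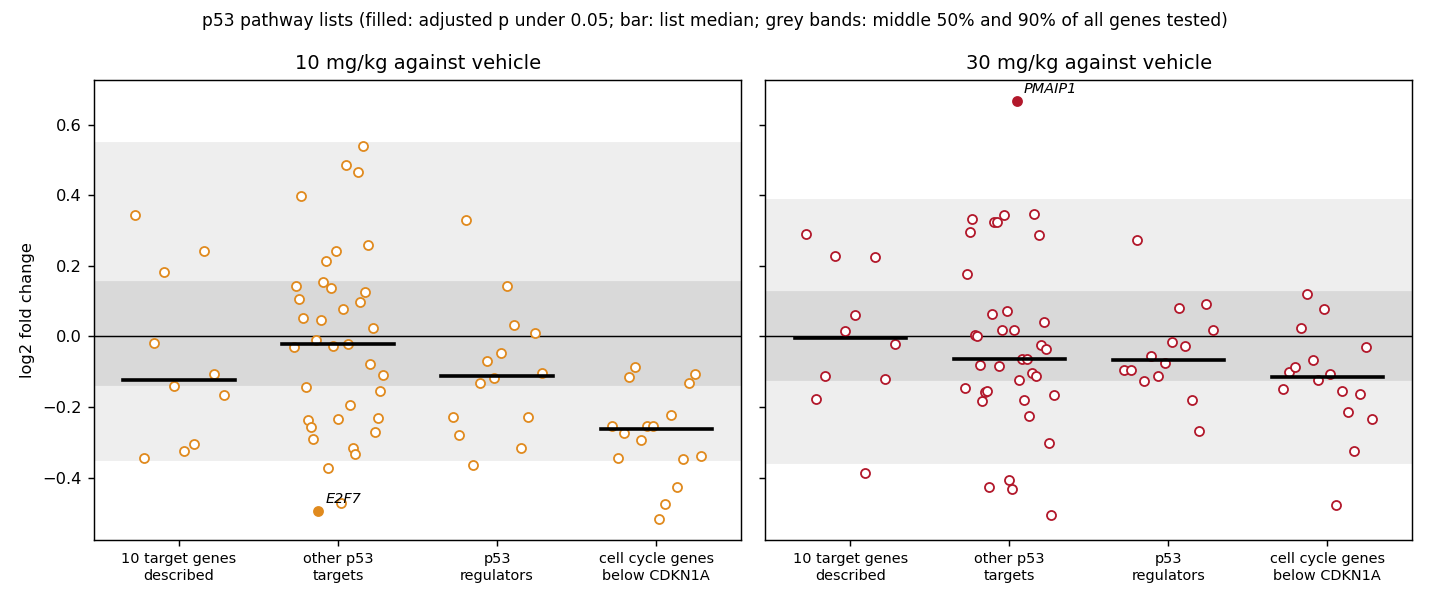
Log2 fold changes of single genes in 4 lists, for 10 mg/kg against vehicle and 30 mg/kg against vehicle, with the list median as a bar and grey bands for the middle 50% and 90% of all genes tested. The 10 targets and the other p53 targets scatter around 0, the 16 cell cycle genes lie below 0 at 10 mg/kg, and the filled points E2F7 and PMAIP1 are the ones that passed.

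Relatives of the 10 genes were set beside them, among which SESN2 is also counted in the further p53 targets above. SESN2, a sestrin that ATF4 also induces, had 23.8 to 85.3 CPM at 10 mg/kg, against 18.99 to 27.9 CPM in vehicle tumours (1.45-fold, adjusted p = 0.301, and 1.305-fold without replicate 2), whereas SESN1 stood at 0.809-fold. In the 30 mg/kg group SESN2 had 1.27-fold (adjusted p = 0.676) and SESN3 1.09-fold (adjusted p = 0.971). The S-phase partners of ribonucleotide reductase, RRM1 and RRM2, had 0.747-fold and 0.791-fold at 10 mg/kg (adjusted p = 0.269 and 0.384), beside 0.798-fold for RRM2B. The other kinase inhibitors CDKN1B (p27) and CDKN1C (p57) had 1.08-fold and 1.13-fold at 30 mg/kg (adjusted p = 0.972 and 0.951). Differences between relatives were not tested.

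Within groups the 10 genes did not move as 1 unit from tumour to tumour. Correlations of log2 CPM were taken after removing group means, over the 17 libraries other than 10 mg/kg replicate 2, with permutation within groups and adjustment over the 45 pairs. Of these pairs, 23 were positive, the median r was 0.07 and 5 passed an adjusted p of 0.05. The 2 farthest libraries left out below were those farthest from the median of the first gene named in the pair. Libraries extreme only for the second gene stayed in. RRM2B and ZMAT3 varied together (Pearson r = 0.778, permutation p = 0.00037, adjusted 0.0167; Spearman rho = 0.684, permutation p = 0.00327, adjusted 0.0368; r = 0.569 without the 2 farthest libraries). TP53I3 varied with RRM2B (r = 0.702, permutation p = 0.00101, adjusted 0.0227; rho = 0.672, permutation p = 0.002, adjusted 0.0368; r = 0.658 without the 2 farthest). TP53I3 also varied with ZMAT3 (r = 0.705, permutation p = 0.00366, adjusted 0.0329; rho = 0.801, permutation p = 0.0005, adjusted 0.0225; r = 0.601 without the 2 farthest).

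CDKN1A ran against TP53I3 and RRM2B. Its r was -0.719 with TP53I3 (permutation p = 0.00218, adjusted 0.0327; rho = -0.686, permutation p = 0.00423, adjusted 0.0381; r = -0.647 without the 2 farthest). With RRM2B it was -0.678 (permutation p = 0.00355, adjusted 0.0329; rho = -0.735, permutation p = 0.00263, adjusted 0.0368; r = -0.615 without the 2 farthest). With ZMAT3 it was -0.557, which did not pass (permutation p = 0.0207, adjusted 0.0931; rho = -0.630, permutation p = 0.00834, adjusted 0.0626). Within the 6 vehicle tumours the r of CDKN1A with RRM2B was -0.723, and within the 6 tumours at 30 mg/kg -0.914. It was -0.57 at 10 mg/kg, where 5 libraries are left. The vehicle value leans on replicate 3, which had the highest CDKN1A (162 CPM). Its RRM2B was 48.0 CPM, against 72.2 to 76.7 CPM in the other vehicle tumours, and r without it was not computed. With 10 mg/kg replicate 2 included, r was 0.463 for RRM2B with ZMAT3, 0.688 for TP53I3 with RRM2B, 0.594 for TP53I3 with ZMAT3, -0.677 for CDKN1A with TP53I3 and -0.777 for CDKN1A with RRM2B. In the 30 mg/kg group, replicates 3, 5 and 6 had the 3 highest CDKN1A levels and the 3 lowest RRM2B levels.

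A property of the libraries moved with these genes. The slope of a library's log2 values on the GC content of the genes ran from -0.155 to 0.128 per 10% GC in the 17 libraries. Its r over these libraries, given as a description, was 0.785 with CDKN1A, -0.840 with RRM2B, -0.796 with TP53I3 and -0.731 with ZMAT3. It was -0.637 with MDM2, 0.626 with FDXR, -0.425 with SESN1 and 0.348 with TIGAR. FAS and GDF15 had an r near 0, at -0.05 and 0.04. GC content was taken from the longest protein-coding transcript of each gene. The transcripts of CDKN1A and TP53I3 have 58.1% and 58.4% GC, and those of RRM2B and ZMAT3 36.4% and 39.5%. TP53I3 thus ran against the slope despite its GC content. GDF15 with 62.9% GC and FAS with 39.1% GC did not follow the slope either. With the slope removed, r was 0.444 for RRM2B with ZMAT3, 0.102 for TP53I3 with RRM2B, 0.299 for TP53I3 with ZMAT3, -0.253 for CDKN1A with TP53I3 and -0.06 for CDKN1A with RRM2B. With this slope added to the fit, 0 of 10 genes passed in any comparison, and CDKN1A stood at 1.06-fold at 10 mg/kg and 1.22-fold at 30 mg/kg (adjusted p = 0.890 and 0.169).

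**Figure D4:**
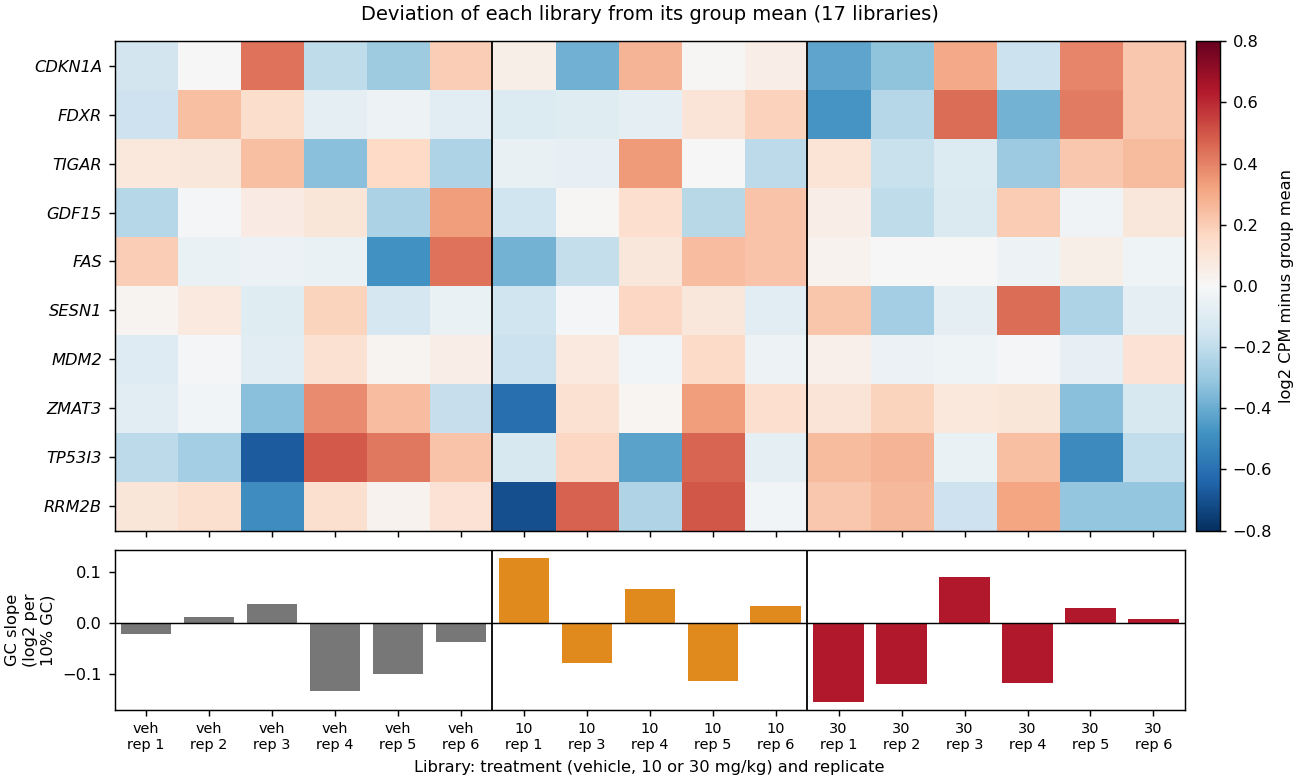
Deviation of each of 17 libraries from its group mean (colour, log2 CPM) for the 10 p53 targets, above the GC slope of the same library (bars, log2 per 10% GC). In 30 mg/kg replicate 5 and in vehicle replicate 3 CDKN1A is above its group mean while TP53I3, RRM2B and ZMAT3 are below theirs, and the slope is positive in both of these libraries.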

How the data were processed

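The authors deposited 1 gene table per library with 25343 human genes by Entrez ID. Per the file headers, the tables give expected counts (estimated reads per gene, not scaled) and TPM, which the authors scaled for transcript length. STAR 2.4.2a and the builds hg19 and mm10 are named in the submitters' processing notes. For the counting tool, its use of strand and the split of human from mouse reads, details were not given in the sources used here.

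Both the 10 genes and all lists were chosen with earlier results of these data known. Symbols were matched by gene ID for 25220 IDs and by transcript accession for 26. Expected counts were rounded, filtered with filterByExpr (14074 genes kept), scaled by TMM and fitted for all 18 libraries together with edgeR 4.0.16 (robust quasi-likelihood F test, R 4.3.3). P-values were Benjamini-Hochberg adjusted over all genes, with a threshold of 0.05. Intervals are 95% and come from the fit. The fit was tested on simulated data.

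Named genes are the 10 targets, MDM4, PPM1D and 1 regulator that is not reported here, listed targets and regulators that passed, the 4 other targets and 2 cell cycle genes with the smallest p in each comparison, and all genes shared with ATF4 or CHOP or of the same families. Alternatives were DESeq2 1.42.0, its size factors, scaling by library totals, leaving the filter out, a minimum of 5 CPM in 6 libraries, limma 3.58.1 (voom, voom with sample weights, trend on log2(TPM + 1)), groups compared alone, a replicate block and each library left out. Each library's GC slope as a covariate was added after the data were seen. GC content could be assigned to 88.3% of tested genes. CPM in the text is the TMM-scaled value computed from these counts. Permutations of correlations numbered 100000. Total counts ran from 433981 to 8538792, and the smallest library limits the precision at 10 mg/kg.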

Additional observations from a re-analysis of the deposited data

Results flagged for a closer look

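In groups of 6, a sample was marked when its distance to the nearest other sample exceeded 0.625 of the range of the group (Dixon's limit). Over 31 named genes 93 groups were examined and 12 samples were marked, where chance marks about 1 in 20 groups. Of the 12, 8 came from replicate 2 of the 10 mg/kg group, the library with 433981 counts. Its high values were 290.3 CPM for CDKN1A, 226 CPM for FDXR, 80.6 CPM for TIGAR, 269.6 CPM for MDM4, 85.3 CPM for SESN2, 34.6 CPM for E2F1, 69.1 CPM for BBC3 and 237 CPM for CDKN1B. On TPM it lay near the next highest tumour of the group for CDKN1A (166.18 against 162.5), TIGAR (11.58 against 10.18) and E2F1 (15.39 against 15.01). MDM4 had 32.35 TPM, below replicate 5 with 32.89. FDXR (143.51 against 87.26), SESN2 (28.88 against 21.98), BBC3 (46.04 against 37.71) and CDKN1B (113.39 against 88.35) also kept the highest TPM of the group. For FDXR the other 5 tumours of the group lay between 62.2 and 77.3 CPM. The CPM values do not carry this library's TMM factor of 1.148, which would lower them, and the marking was not repeated with it. The part of depth, stromal RNA or GC slope (0.471 log2 per 10% GC in this library) in these values was not tested.

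The other 4 came from libraries of ordinary depth. RRM2B was low at 48.0 CPM in vehicle replicate 3, where the other vehicle tumours had 72.2 to 76.7 CPM. PMAIP1 was high at 97.0 CPM in the same library. BIRC5 at 166 CPM and RRM2 at 238 CPM were high in replicate 5 of the 30 mg/kg group.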

How the results depend on the processing

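None of the 10 p53 targets passed in any comparison under any of 29 alternatives, and 48 of 870 fold changes of these genes changed sign without having passed. Of 93 results for named genes, 0 that had passed changed direction. The genes called at 10 mg/kg (66) and 30 mg/kg (87) against vehicle numbered 159 and 179 with DESeq2, 235 and 315 with limma-voom and sample weights, 12 and 23 with limma-trend on TPM, 32 and 57 without a filter, 36 and 191 with the groups compared alone, and 128 and 256 with the GC slope as a covariate. With one library left out the counts ran from 31 to 121 at 10 mg/kg and from 61 to 182 at 30 mg/kg, the highest at both doses without replicate 2 of the 10 mg/kg group. At 10 mg/kg 31, 40 and 42 genes were called without vehicle replicates 5, 2 and 1. The labels do not say whether the replicate numbers pair the libraries. Same-numbered libraries correlated between -0.281 and 0.224 after group means were removed, which shows no strong shared deviation but cannot exclude a pairing. With the replicate numbers as a block 24 and 60 genes passed, and the further p53 targets called were 0 and 1.

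Further p53 targets called, 1 at each dose, numbered 2 and 2 with DESeq2, 2 and 4 with sample weights, 0 and 0 with limma-trend on TPM, 0 and 3 with the groups alone, 3 and 4 with the GC slope, and 0 at 10 mg/kg without a filter. They ran from 0 to 2 at 10 mg/kg and from 1 to 2 at 30 mg/kg with one library left out. No gene passed between the doses under any alternative. The causes of these differences were not tested. Among the 10 p53 targets, FAS, SESN1 and TP53I3 had the fewest reads in the shallowest library, with 1, 4 and 8.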
